A study of Mus musculus with 2 samples.

Results

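The 8 genes described here encode 4 secreted signals to leukocytes and 4 receptor chains: Csf1, Il34, Csf2 and Il33 on the ligand side, and Csf1r, Csf2ra, Csf2rb and Il1rl1 on the receptor side. They were chosen by name, and are 8 of the 27254 genes with a row in the count matrices of newborn mouse lung, where each was present in both matrices. The cells were those with at most 10% of their UMIs (unique molecular identifiers, which mark each captured transcript) from mitochondrial genes. The matrices came from whole lungs of C57BL/6J mice at postnatal day 1 with the genotype wt, untreated, in a Batch 1 and a Batch 2 of 1 mouse each, which were female according to the methods of the study. No allele, treatment or age was compared. The 2 mice are the replicates, and comparisons were made between cell types over the sums of each mouse.

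CSF1 and IL-34 both bind the receptor tyrosine kinase CSF1R, on which most tissue macrophages and many monocytes depend. GM-CSF, the product of Csf2, binds the alpha chain CSF2RA together with the beta chain CSF2RB, which is shared with the receptors of IL-3 and IL-5, and in the lung it is known for driving the maturation of alveolar macrophages after birth. IL-33 is a nuclear cytokine of barrier cells that acts when released, through ST2, the product of Il1rl1, which is known from mast cells, basophils, type 2 innate lymphoid cells and regulatory T cells.

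After filtering, Batch 1 held 2388 cells with 4432553 UMIs and a median of 1386.5 UMIs per cell, and Batch 2 held 5615 cells with 18232639 UMIs and a median of 2014. The matrices shared 0 cell barcodes. The mitochondrial limit removed 1940 cells from Batch 2 and 1 cell from Batch 1, and haemoglobin transcripts were more frequent in Batch 1 in 24 of 25 classes, with 617 UMIs per 10000 in the AT2-like cells against 60.4 in Batch 2. The exception were venous-like cells, with 227 and 257. Cells were clustered without the 8 genes and named after listed markers, which gave 25 classes with at least 5 cells in each batch, 8 of them of immune cells. Their markers showed epithelial, endothelial, mesenchymal and immune cells in each batch, as the label of whole lung states. A pair of myeloid classes had leading genes that did not settle a name, and both are called by these genes: the Mpeg1/Ear2 myeloid cells and the Fabp4/Mrc1 myeloid cells. The T-like class also held genes of natural killer (NK) cells, such as Gzma and Nkg7, among its leading genes, and T and NK cells were not separated in it. Its 8 T cell markers summed to 23.9 UMIs per 10000 in Batch 1 and 28 in Batch 2, and its 6 NK markers to 14.1 and 50.4. Levels are given as UMIs of the gene per 10000 UMIs of the class, with exact Poisson 95% intervals, and detection as the percentage of cells in which the gene had a UMI. Intervals cover counting error only.

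All 8 genes were sparse, with 61 (Il1rl1) to 381 (Csf2ra) UMIs in the 8003 cells. The ligands lay outside the immune cells for the most part. Epithelial cells held 89.6% of the 106 Csf2 UMIs, 66.0% of the 162 Il34 UMIs and 64.9% of the 205 Il33 UMIs, at 21.7% of the cells. Csf1 was spread wider, with 40.3% of its 288 UMIs in endothelial, 31.6% in mesenchymal and 15.6% in immune cells. The batches differed in this split, since mesenchymal cells held 54.8% of the Csf1 UMIs of Batch 1 and endothelial cells 51.6% of those of Batch 2. The immune compartment, 7.52% of the cells, held 75.8% of the 277 Csf2rb UMIs, 56.9% of the 218 Csf1r UMIs, 47.0% of the Csf2ra UMIs and 34.4% of the Il1rl1 UMIs. A whole-lung suspension sets these shares through the number of cells of each type as much as through the level per cell.

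**Figure D1:**
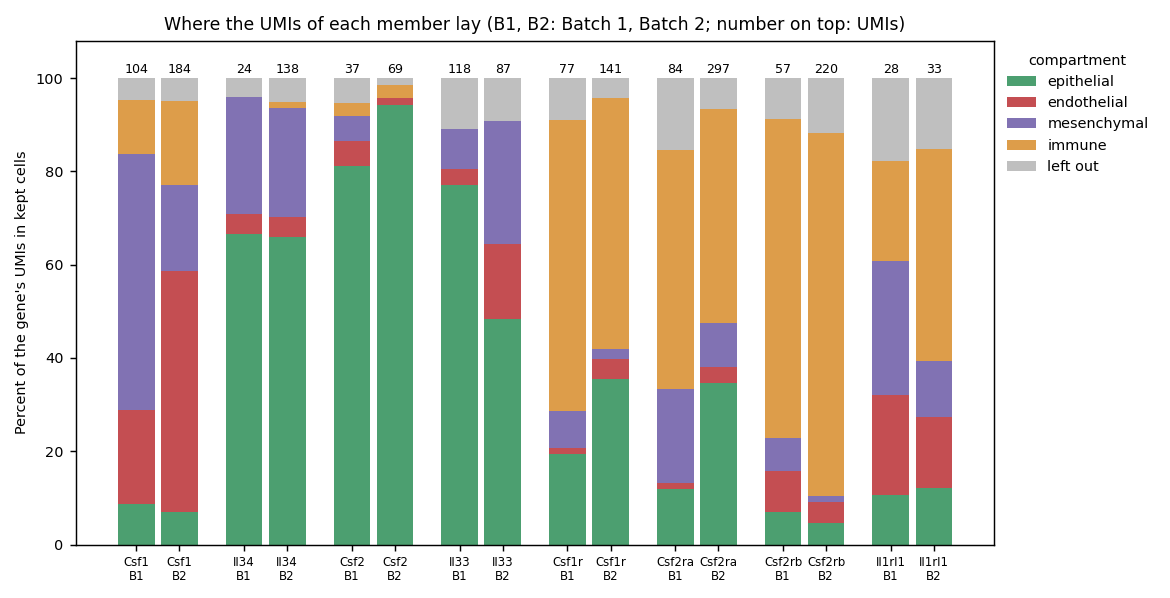
Share of the UMIs of each gene (percent, vertical axis) by compartment, in Batch 1 (B1) and Batch 2 (B2). The numbers on top are UMIs, from 24 for Il34 in Batch 1 to 297 for Csf2ra in Batch 2, and "left out" marks cycling, erythroid-like, platelet-like and mixed-marker cells. Green (epithelial) takes most of Csf2 and Il34 in both batches, and orange (immune) takes most of Csf2rb.

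Counts summed over the 4 compartments in each batch were compared with edgeR, with the mouse as a block. The 4 comparisons share the same sums, and 7 of the 8 genes passed the filter on low counts, all but Il33. Against the mean of the other compartments, 5 of the 7 were higher in immune cells (15.8% of all 12083 genes tested were called higher in the same comparison). The log2 difference was 6.53 ± 0.33 (SE) for Csf2rb (adjusted p 6.1e-08), 5.40 ± 0.30 for Csf1r (adjusted p 1.5e-07) and 4.75 ± 0.24 for Csf2ra (adjusted p 7.0e-08). Il1rl1 was higher by 3.50 ± 0.60 (adjusted p 0.0011). Of its 21 UMIs in immune cells, 19 were in the basophil-like class. Csf1, a ligand, was also higher, by 1.98 ± 0.49 (adjusted p 0.0099). This call rests on 1 small class: without the basophil-like cells, the immune compartment held 0 Csf1 UMIs among 229044 in Batch 1 and 6 among 951447 in Batch 2. The Csf1 call was lost without the block (adjusted p 0.066) and with a mitochondrial limit of 5% (adjusted p 0.078).

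In epithelial cells 2 of the 7 genes were higher (21.8% of all genes were). Csf2 was higher by 4.31 ± 0.51 on the log2 scale (adjusted p 6.0e-05) and Il34 by 2.75 ± 0.53 (adjusted p 0.0018). Another 2 were lower (14.7% of all genes were), Csf1 with -2.65 ± 0.55 (adjusted p 0.0030) and Csf2rb with -2.07 ± 0.53 (adjusted p 0.011). Il33, tested in edgeR only without the filter, had a log2 difference of 4.81 ± 0.59 there (adjusted p 6.7e-15). In immune cells it had one of -7.28 ± 1.92 (adjusted p 0.0016), with no UMI in either batch. Its epithelial level was 1.08 UMIs per 10000 in Batch 1 and 0.0528 in Batch 2, against 0.0577 and 0.0636 in mesenchymal cells. Epithelial cells thus stood above mesenchymal cells in Batch 1 only. Immune cells, with no UMI, are part of the mean that epithelial cells were compared with. A floor of 3 counts allows immune cells 0.125 and 0.0308, and endothelial cells had 0.0364 and 0.0307. The counts therefore did not set immune cells apart from endothelial cells for Il33. Endothelial cells were lower in 3 of the 7 (12.7% of all genes), with -3.82 ± 0.37 for Csf2ra (adjusted p 1.8e-05), -3.23 ± 0.49 for Csf1r (adjusted p 4.8e-04) and -1.52 ± 0.52 for Csf2rb (adjusted p 0.048). Mesenchymal cells were lower in 4 of the 7 (13.2% of all genes): Csf1r, Csf2, Csf2ra and Csf2rb, with differences from -3.15 to -1.01. The calls of Csf2rb in endothelial and Csf2ra in mesenchymal cells were each lost under 4 alternatives, with adjusted p up to 0.10. Csf1 and Il34 passed the threshold in neither of these stromal compartments.

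**Figure D2:**
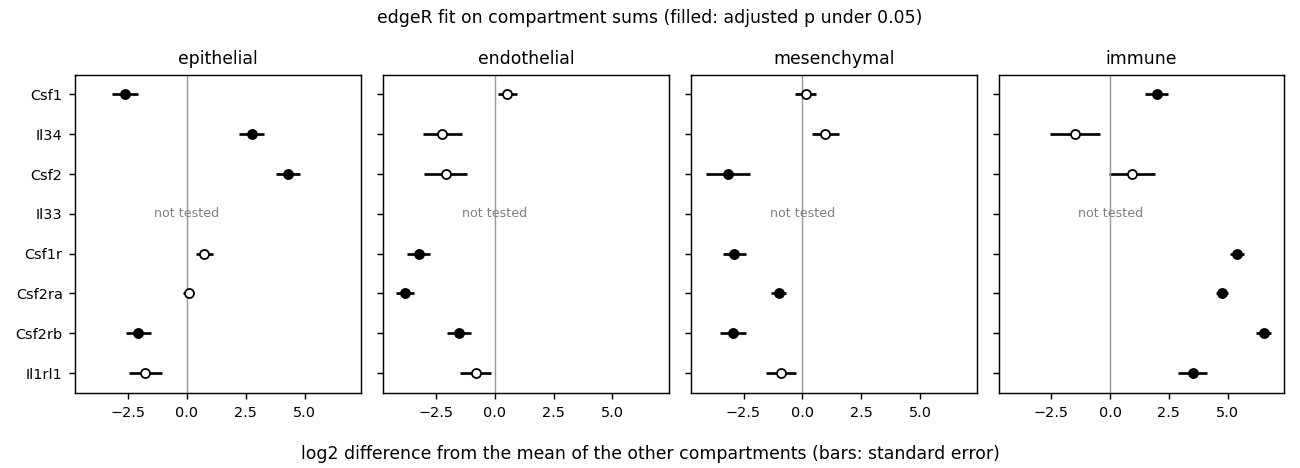
Log2 difference of each compartment from the mean of the other 3 (horizontal axis), with its standard error, from the edgeR fit over 8 sums. Filled points passed an adjusted p of 0.05. The receptors stand to the right in immune cells, up to 6.53 for Csf2rb, and Csf2 and Il34 in epithelial cells. The Il1rl1 point in immune cells rests mainly on the basophil-like class. Il33 did not pass the filter on low counts.

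Csf1 lies at 3:107741048-107760469 on the minus strand of GRCm38, the build of mm10. Its level was highest in the basophil-like class, with 11.964 UMIs per 10000 in Batch 1 (6.18 to 20.9, 12 UMIs in 4 of 6 cells) and 12.794 in Batch 2 (8.43 to 18.6, 27 UMIs in 5 of 9 cells). Both values lay above those of all 24 other classes. In Batch 2, 19 of the 27 UMIs were in 1 cell, and without it the level was 4.53. Without the cell of most Csf1 UMIs in Batch 1 it was 8.30.

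Mesothelial-like cells, which cover the lung surface, came next for Csf1, with 1.16 in Batch 1 and 1.21 in Batch 2, from 5 UMIs in each. Both values lay above those of the 23 classes further down the order. Arterial-like endothelium followed with 0.575 and 0.380, which overlapped with vascular mural-like cells (0.677 and 0.205) and MatrixFB-2-like fibroblasts (0.596 and 0.202). The order of these neighbours therefore did not hold over the batches. General capillary-like endothelium had a lower level, 0.133 in Batch 1 and 0.192 in Batch 2, from 7 and 33 UMIs. Of the 116 endothelial Csf1 UMIs, arterial-like cells held 20 and general capillary-like cells 40. Aerocyte-like, lymphatic-like and venous-like cells held 1, 2 and 2. The rest were in an unnamed endothelial class of 65 and 243 cells, with Prx, Car4 and Ednrb among its leading genes. That class entered no class comparison and is not in this order. In the MatrixFB-1-like fibroblasts, the most numerous class, the level was 0.245 in Batch 1 and 0.0455 in Batch 2, a 5.39-fold difference between the mice. Between the matrix fibroblast classes Csf1 did not pass the threshold (log2 difference -1.46 ± 0.80, adjusted p 0.41). Macrophage-like, monocyte-like, B-like and T-like cells and both unnamed myeloid classes held 0 Csf1 UMIs. In the B-like cells, the background chosen for Csf1, 0 of 23 cells in Batch 1 and 0 of 36 in Batch 2 had a UMI, at median depths of 1284 and 1411.5 UMIs. By a floor of 3 counts this allows up to 13% and 8.33% of cells with a UMI, and sets no limit on cells that express the gene.

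Il34, the other ligand of CSF1R, lies at 8:110741829-110805924 on the minus strand. Pericytes, the contractile support cells of capillaries, had the highest mean level, with 0.259 in Batch 1 (0.0313 to 0.934, 2 UMIs) and 0.756 in Batch 2 (0.479 to 1.13, 23 UMIs in 21 of 158 cells). AT2-like cells, which make surfactant, had 0.294 in Batch 1 and 0.214 in Batch 2, and AT1/AT2-like cells, which hold markers of both alveolar types, had 0.242 and 0.0959. The pericyte-like and AT2-like values overlapped, so these classes were not told apart. Of the 25 classes, these 3 and the MatrixFB-1-like class (0.0327 and 0.0228) held an Il34 UMI in both batches, and AT1-like cells held none. The basophil-like and macrophage-like cells also held none.

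**Figure D3:**
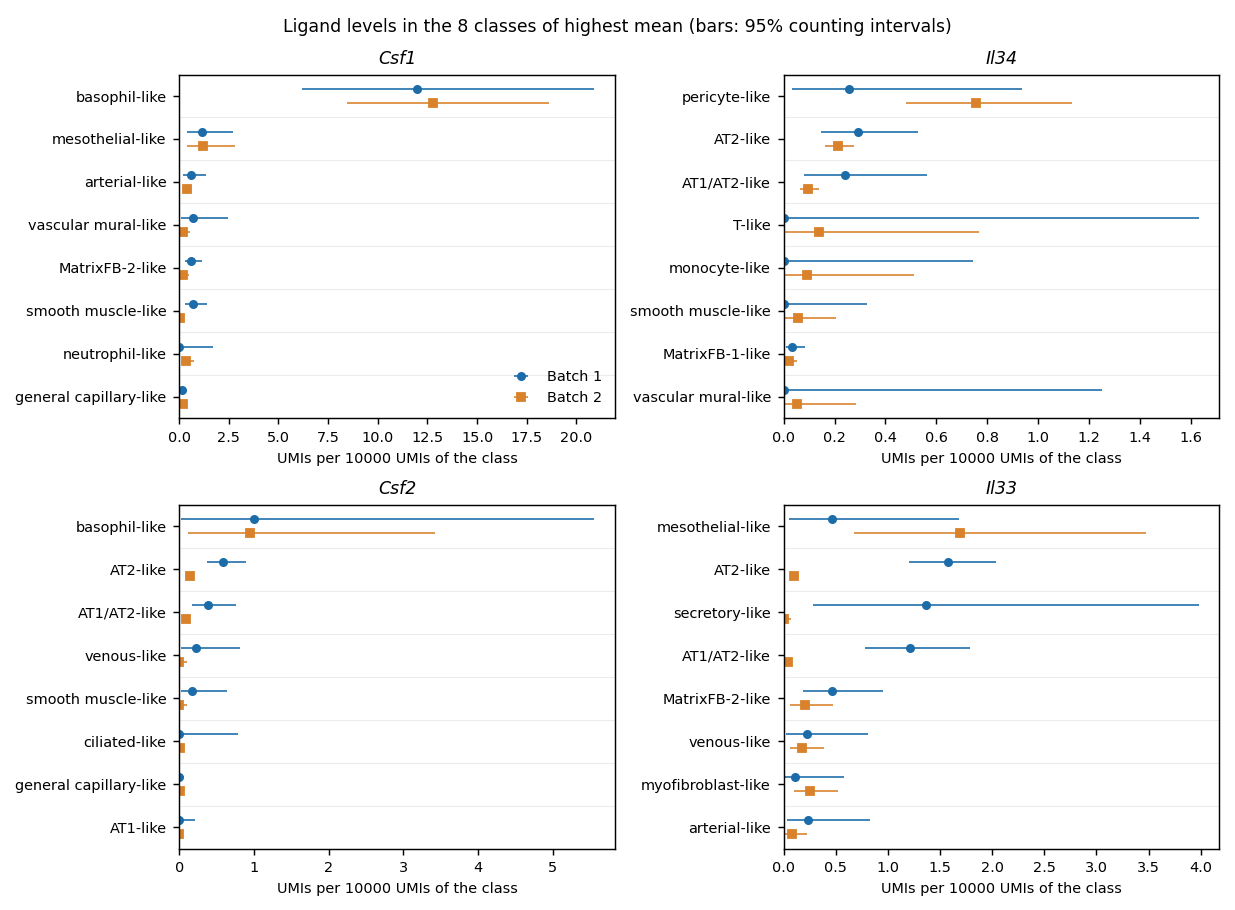
Levels of the 4 ligands (UMIs per 10000 UMIs of the class, horizontal axis, own scale in each panel) in the 8 classes of highest mean, for Batch 1 (circles) and Batch 2 (squares), with exact Poisson 95% intervals. Csf1 stands apart in the basophil-like class in both batches, at 11.964 and 12.794. The batches lie apart for Il33 in AT2-like and AT1/AT2-like cells.

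Csf1r, on the plus strand of chromosome 18 (61100598 to 61132149), was highest in the macrophage-like class, with 7.16 UMIs per 10000 in Batch 1 (4.43 to 10.9, in 12 of 21 cells) and 3.44 in Batch 2 (2.38 to 4.81, in 25 of 45 cells). The Mpeg1/Ear2 myeloid cells had 3.47 and 0.738, lower in each batch, but their Batch 1 value overlapped with the macrophage-like values. The makeup of the Mpeg1/Ear2 class differed between batches. The complement genes C1qa, C1qb and C1qc, which mark resident macrophages, summed to 16.9 UMIs per 10000 there in Batch 1 and 0.266 in Batch 2. Monocyte-like cells had 1.61 and 1.11, and neutrophil-like cells 0.916 and 0.229. Matrix fibroblast-like cells, taken as background, had 0.0364 and 0.00818.

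At equal depth, with each cell thinned to 600 UMIs, Csf1r was detected in 40.4% of the macrophage-like cells of Batch 1 and 19.9% of those of Batch 2, against 57.1% and 55.6% of the unthinned cells. The matrix fibroblast-like cells gave 0.210% and 0.0587% after thinning, against 0.430% and 0.156% before it, at median depths of 1312.5 and 1726 UMIs. The Fabp4/Mrc1 myeloid cells had no Csf1r UMI in 14 cells of Batch 1 and 40 of Batch 2, which allows up to 21.4% and 7.50% of cells with a UMI by the same floor. B-like cells were also at 0 in both batches.

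Csf1r was 3.39-fold higher in macrophage-like than in monocyte-like cells in the pooled counts (2.00 to 5.98), and higher in each batch, but the fitted log2 difference of 1.71 ± 0.67 did not pass the threshold (edgeR adjusted p 0.26). In all comparisons between classes 7 of the 8 genes were tested, and the one that did not pass the filter was Il34. None of the 7 did in this comparison (1.97% of all 6555 genes did), and 4 of the 7 had no UMI in either class. At an unadjusted p under 0.05 there were 2, Csf1r and Csf2ra, and DESeq2 called 0. Macrophage-like and monocyte-like cells together stood apart from B-like and T-like lymphocytes, with 3 of the 7 genes higher (7.96% of all genes). Csf1r differed by 6.85 ± 1.17 on the log2 scale (adjusted p 1.6e-05), from 29 and 46 UMIs in the myeloid cells of Batch 1 and Batch 2 against 1 and 0 in the lymphocytes.

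Outside the immune cells, Csf1r was found in AT1-like cells, the thin cells of gas exchange, with 0.343 in Batch 1 (6 UMIs in 6 of 83 cells) and 0.307 in Batch 2 (20 UMIs in 15 of 300 cells). Both values lay above the background, with detection of 1.97% and 1.74% of the cells after thinning. AT1/AT2-like cells held slightly more UMIs, 7 in Batch 1 and 21 in Batch 2, at 0.338 and 0.0719, and mesothelial-like cells had 0.232 and 0.241, from 1 UMI in each batch. None of the 21 AT1-like cells with Csf1r held a C1q UMI, nor did any of the 18 such AT1/AT2-like cells of Batch 2, while 1 of the 7 of Batch 1 did. The AT1-like class as a whole held 1 C1q UMI in Batch 1 and 0 in Batch 2. All macrophage-like cells with Csf1r held C1q, but 1 of 7 and 1 of 10 such monocyte-like cells did. Lyz2 was at 0.572 and 0.353 UMIs per 10000 in AT1-like cells, against 0.262 and 0.209 in MatrixFB-1-like cells. S100a8 was at 0.286 and 0.445, against 0.229 and 0.542. A part of myeloid RNA in the AT1-like Csf1r counts was not tested. The 5 general immune markers summed to 0.343 UMIs per 10000 in AT1-like cells in Batch 1 and 0.123 in Batch 2, against 29 and 18.9 in macrophage-like cells. AT2-like cells were lower than AT1-like cells (log2 difference -4.07 ± 0.91, adjusted p 6.8e-04), with 2 UMIs in Batch 1 and 1 in Batch 2. This call was lost with a mitochondrial limit of 5% (adjusted p 0.097). Csf1r overlaps Hmgxb3 on the opposite strand, which had 310 UMIs in all deposited cells, those over the mitochondrial limit included. Whether the counting used strand is not given in the sources used here, and a part of Hmgxb3 in the epithelial Csf1r counts was not tested.

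Csf2 lies at 11:54247271-54249667 on the minus strand. AT2-like cells had 0.588 UMIs per 10000 in Batch 1 (0.368 to 0.890, 22 UMIs in 16 of 158 cells) and 0.145 in Batch 2 (0.103 to 0.20, 38 UMIs in 31 of 643 cells). AT1/AT2-like cells had 0.386 and 0.0890. In both classes the value of Batch 1 was the higher one. AT1-like cells had 0 Csf2 UMIs in both batches. AT2-like cells were at least 5.53-fold higher than AT1-like cells, taking the floor of 3 counts over both batches for the latter, and passed the threshold (adjusted p 0.0028). In each batch alone this bound was 3.43-fold in Batch 1 and 3.16-fold in Batch 2. In this comparison 2 of the 7 genes tested were higher (6.04% of all 6555 genes) and 1 was lower (7.03%), while DESeq2 called 1 of them. Il34, tested only without the filter, had a log2 difference of 6.59 ± 1.41 (adjusted p 2.1e-04), with AT2-like cells at least 6.18-fold higher in the pooled counts, and at least 1.71-fold in Batch 1 and 4.65-fold in Batch 2.

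The basophil-like class also held Csf2, with 1 UMI in Batch 1 and 2 UMIs, in 1 cell, in Batch 2. Its levels of 0.997 and 0.948 were above those of the 24 other classes, with intervals of 0.0252 to 5.55 and 0.115 to 3.42. T-like and B-like cells held none, and 18 of the 25 classes had no Csf2 UMI at all.

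Csf2ra, at 19:61223957-61228429 on the minus strand, was spread over the myeloid classes. The Mpeg1/Ear2 myeloid cells had 3.26 UMIs per 10000 in Batch 1 and 1.92 in Batch 2, monocyte-like cells 2.62 and 1.93, and neutrophil-like cells 1.83 and 2.00. These 3 classes overlapped and could not be ordered. The Fabp4/Mrc1 myeloid cells had 1.82 and 1.06, and macrophage-like cells 1.70 and 0.405. The macrophage-like and monocyte-like cells differed by -1.63 ± 0.70 on the log2 scale, which did not pass the threshold (adjusted p 0.33). Their 95% interval of the pooled ratio ran from 0.138 to 0.695. Against lymphocytes, Csf2ra was higher by 3.21 ± 0.81 (adjusted p 0.0041), and this call was lost with a mitochondrial limit of 5% (adjusted p 0.11). Csf2ra had the highest background of the receptors, 0.102 and 0.0655 in matrix fibroblast-like cells. Epithelial cells held 29.7% of its UMIs, with the highest levels in secretory-like cells (0.454 from 1 UMI in Batch 1 and 0.224 in Batch 2) and ciliated-like cells (0.212, also from 1 UMI, and 0.151). AT2-like cells had 0.107 and 0.122.

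Csf2rb, at 15:78325752-78353847 on the plus strand, was highest in the basophil-like class, with 8.97 in Batch 1 (4.10 to 17, 9 UMIs in 4 of 6 cells) and 6.16 in Batch 2 (3.28 to 10.5, 13 UMIs in 6 of 9 cells). Both lay above those of the other 24 classes. The myeloid classes followed close together. The Mpeg1/Ear2 myeloid cells had 2.17 and 2.57, the Fabp4/Mrc1 myeloid cells 2.27 and 1.76, neutrophil-like cells 2.29 and 1.03, monocyte-like cells 1.21 and 1.93, and macrophage-like cells 1.36 and 1.72. Macrophage-like and monocyte-like cells differed by -0.16 ± 0.64 on the log2 scale (adjusted p 1.0), with a pooled ratio of 0.960 (0.516 to 1.76). B-like and T-like cells had 0, against which the macrophage-like and monocyte-like cells were at least 11.5-fold higher in the pooled counts (adjusted p 1.2e-05). In Batch 1 alone the bound was 2.55-fold and in Batch 2 alone 8.86-fold. The background in matrix fibroblast-like cells was 0.0146 and 0.0123.

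The neighbour Csf2rb2 (15:78282507-78305721, minus strand) encodes the beta chain used by the mouse IL-3 receptor alone. Of windows of 50 bases, 18.9% of the Csf2rb transcript were also found in Csf2rb2, but 0 of the 451 windows in its last 500 bases, the end that this protocol captures. Csf2rb2 was highest in basophil-like cells as well, with 2.99 and 5.21.

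Monocyte-like and neutrophil-like cells were the remaining pair of myeloid classes compared. Csf1r was 4.15-fold higher in monocyte-like cells in the pooled counts (1.61 to 12.6) and higher in both batches, while the fitted log2 difference of 1.22 ± 0.89 did not pass the threshold (adjusted p 0.57). None of the 7 genes passed the threshold in edgeR (4.45% of all genes did), and 3 of the 7 had no UMI in either class. In all, 1 had an unadjusted p under 0.05, and DESeq2 called 0. That gene was Csf1, with 6 UMIs in 5 of the 75 neutrophil-like cells of Batch 2 and none in those of Batch 1 or in monocyte-like cells (adjusted p 0.17).

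**Figure D4:**
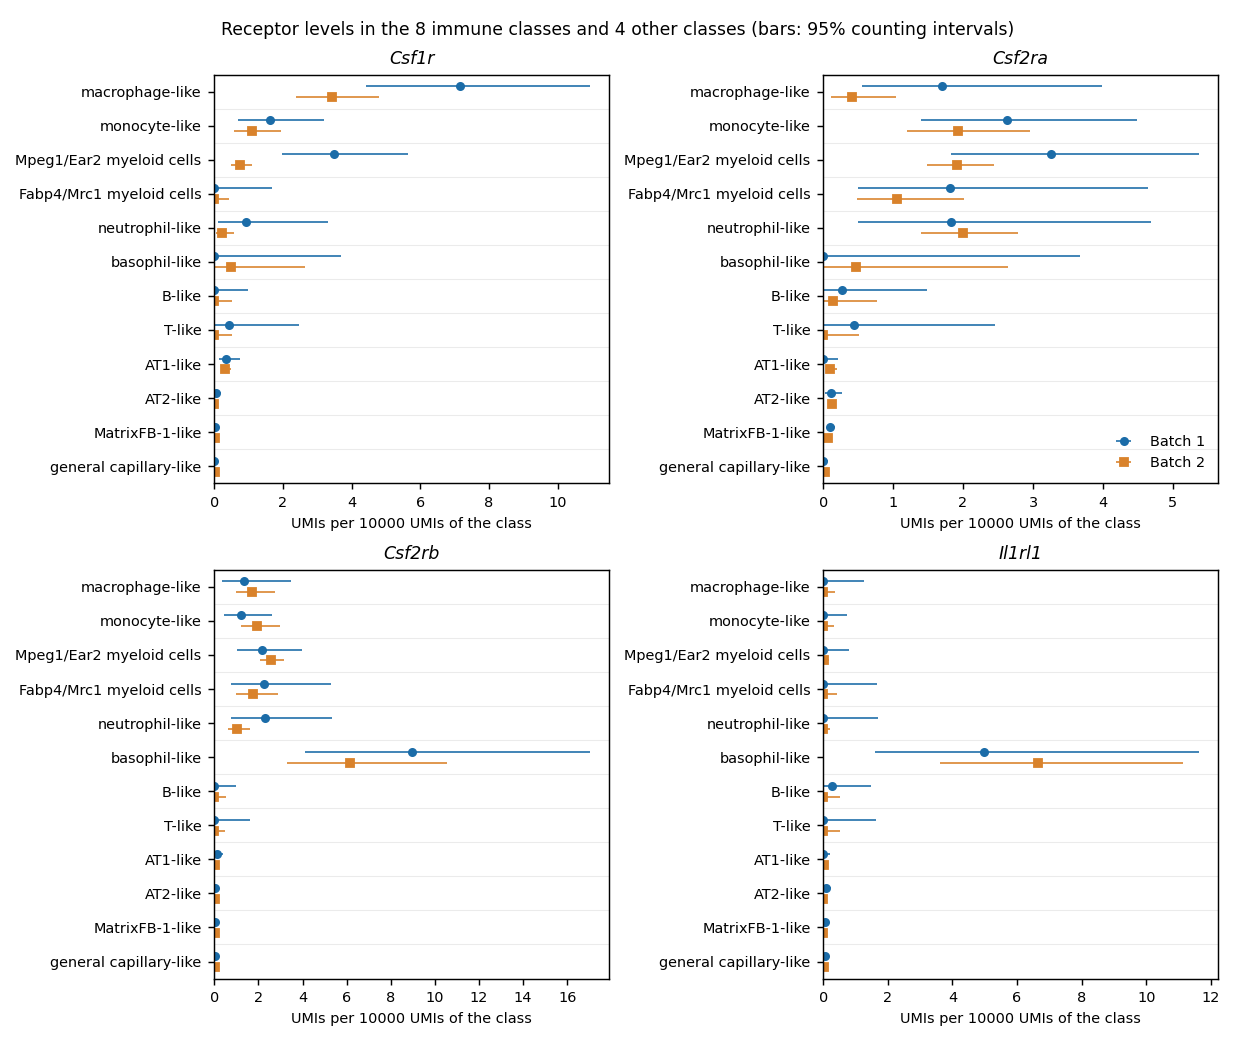
Levels of the 4 receptor genes (UMIs per 10000 UMIs of the class, horizontal axis, own scale in each panel) in the 8 immune classes and 4 others, for Batch 1 (circles) and Batch 2 (squares), with exact Poisson 95% intervals. Csf1r is highest in macrophage-like cells, Csf2ra is spread over the myeloid classes, and Csf2rb and Il1rl1 are highest in basophil-like cells, Il1rl1 with 4.99 and 6.63.

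Il33, at 19:29925114-29960718 on the plus strand, differed most between the mice among the 8 genes, over classes with at least 10 UMIs of the gene in each batch. AT2-like cells had 1.58 UMIs per 10000 in Batch 1 (1.2 to 2.03, 59 UMIs in 38 of 158 cells) and 0.103 in Batch 2 (0.0681 to 0.150, 27 UMIs in 20 of 643 cells), a 15.3-fold difference. In the AT1/AT2-like cells it was 1.21 (25 UMIs) against 0.0445 (13 UMIs), a 27.1-fold difference. That was the largest ratio, in either direction, of the 3088 genes with at least 10 UMIs of this class in each batch, ahead of Fos, haemoglobin genes and mt-Rnr2. In the AT2-like class 3 of 4161 such genes had a larger one, Cphx3, Cphx2 and mt-Rnr2. After thinning, 8.99% of the AT2-like cells of Batch 1 and 0.456% of those of Batch 2 held an Il33 UMI, so the direction was also seen at equal depth.

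Haemoglobin transcripts moved with this difference, with 433 UMIs per 10000 in AT1/AT2-like cells in Batch 1 against 28.5 in Batch 2. They did so in other classes too, with 651 and 79.8 in pericyte-like cells. Pericyte-like, AT1-like, macrophage-like and B-like cells held 0 Il33 UMIs in either batch. The part of depth, of the mitochondrial limit, of RNA from outside cells or of the animal in the difference of Il33 was not tested.

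Where the classes are set side by side, AT2-like cells were higher in Il33 than AT1-like cells, by at least 7.93-fold against the floor in the pooled counts (adjusted p 0.0027). This bound was 9.19-fold in Batch 1 alone and 2.24-fold in Batch 2 alone. DESeq2 did not call this (adjusted p 0.57). Mesothelial-like cells had 0.465 in Batch 1 (2 UMIs) and 1.69 in Batch 2 (7 UMIs in 3 of 11 cells), the highest mean of all classes, though the AT2-like, AT1/AT2-like and secretory-like values of Batch 1 overlapped with them. MatrixFB-2-like fibroblasts, which hold the collagen-rich programme, had 0.464 and 0.202, and MatrixFB-1-like cells 0 and 0.0182. Il33 was the 1 gene of the 7 tested that was lower in MatrixFB-1-like than in MatrixFB-2-like cells (3.02% of all genes were lower), by -4.14 ± 1.24 on the log2 scale (adjusted p 0.038). This call was lost under 4 alternatives, with adjusted p from 0.068 to 0.91. Endothelial cells of veins had 0.225 and 0.176, and myofibroblast-like cells 0.105 and 0.251. No immune class held an Il33 UMI.

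Il1rl1, which encodes the IL-33 receptor ST2, lies at 1:40429570-40465415 on the plus strand. It is known to have a pair of promoters, and its distal one to be used in mast cells and basophils under the factor GATA2. In the RefSeq promoter table of GRCm38.p6, 2 starts of Il1rl1 are listed. The 250 bases before each were searched on both strands for the GATA-type motifs AGATAA and TGATAA. Each match is shown with 12 bases on either side, the motif, or its reverse complement, in capitals. The first pair lie 217 and 80 bases before the first start, and the last lies 103 bases before the second start.
Il1rl1 first start, 1:40429341-40429370 (+): gaaggtccatggAGATAAgggtaaaactgg
Il1rl1 first start, 1:40429478-40429507 (+): ctgtaaagtaacTGATAAggaaacagggag
Il1rl1 second start, 1:40439514-40439543 (+): aaacagcattgtTTATCTcagcttcactga
Of all 32851 promoters in the table, 16.6% held at least 1 match in a window of the same length and 2.72% at least 2. The sequences are shown because the class of highest Il1rl1 level, described next, is one that Gata2 helped to name. Of other genes highest in that class, Csf1 had 0 matches, Csf2 and Csf2rb2 had 1 each, and no start was found for Csf2rb. A match is a description of these letters only.

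The level of Il1rl1 was 4.99 UMIs per 10000 in the basophil-like cells of Batch 1 (1.62 to 11.6, 5 UMIs in 2 of 6 cells) and 6.63 in those of Batch 2 (3.63 to 11.1, 14 UMIs in 6 of 9 cells). Both lay above all 24 other classes. The next most Il1rl1 UMIs were the 5 of the MatrixFB-1-like fibroblasts of Batch 1, at a level of 0.0409. T-like cells (with their NK genes), macrophage-like cells, monocyte-like cells and neutrophil-like cells held 0 UMIs. The B-like background had 1 UMI in 23 cells in Batch 1 and 0 in Batch 2. No separate class of type 2 innate lymphoid cells was found among the clusters. The T-like class had 12 cells in Batch 1 and 28 in Batch 2, for which a floor of 3 counts allows up to 25% and 10.7% of cells with a UMI and sets no limit on cells that express Il1rl1.

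The basophil-like class had 15 cells, 6 in Batch 1 and 9 in Batch 2. Of its markers, Gata2 and Hdc, the enzyme that makes histamine, were each found in 14 cells, the protease Cpa3 in 13 and the basophil protease Mcpt8 in 11. Csf1 was found in 9 cells, Csf2rb in 10 and Il1rl1 in 8. Csf1 and Il1rl1 were in the same cell 6 times, and Csf2rb and Il1rl1 5 times. The cell with 19 Csf1 UMIs had 3 Csf2rb UMIs, 19 Gata2 UMIs and no Il1rl1 UMI. Csf1r and Csf2ra were in 1 cell each, and Il34 and Il33 in none.

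One cell of Batch 1 had a mast cell pattern, with 65 UMIs of Tpsb2, 48 of Cma1 and 43 of Mcpt4, which are mast cell proteases, and no Mcpt8. It held 1 UMI each of Csf2 and Csf2rb and none of Csf1 or Il1rl1. Without it the Batch 1 levels were 13.6 for Csf1, 9.04 for Csf2rb and 5.65 for Il1rl1, and Csf2 was at 0. Il6, a cytokine, had 53 UMIs in 11 of the 15 cells, and the type 2 cytokines Il4 and Il13 had 16 UMIs each, in 6 and 5 cells. Il13 was seen in Batch 2 alone.

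**Figure D5:**
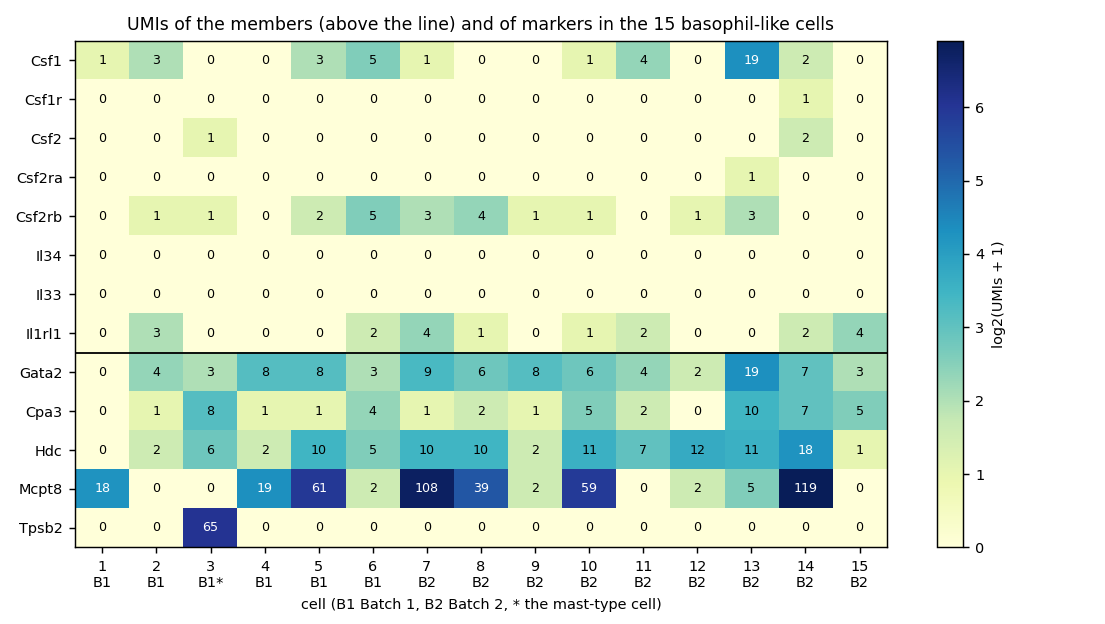
UMIs of the 8 genes and of 5 markers in each of the 15 basophil-like cells (columns, 6 of Batch 1 and 9 of Batch 2, the mast-type cell starred). Colour is log2(UMIs + 1). Csf1, Csf2rb and Il1rl1 are found in 9, 10 and 8 cells, and Il34 and Il33 in none.

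Against the mean of the other 7 immune classes, 4 of the 7 genes tested were higher in basophil-like cells (1.66% of all 6555 genes were). The median of all genes in this fit was -0.85 on the log2 scale. Csf1 differed by 10.00 ± 0.94 (adjusted p 1.7e-12), from 39 UMIs in the basophil-like cells and 6 in all the others, and Csf2rb by 3.90 ± 0.73 (adjusted p 2.7e-04). These 6 Csf1 UMIs were all in neutrophil-like cells. The size of the Csf1 difference therefore depends on how classes with no UMI enter the fit. Il1rl1 differed by 8.94 ± 1.18 in edgeR (adjusted p 1.4e-07), from 19 UMIs against 2, while DESeq2 did not call it (adjusted p 0.17). Csf2, with 3 UMIs, passed with 7.19 ± 2.03 (adjusted p 0.045) and was lost under 3 alternatives. DESeq2 called 2 of these 4. Both mice showed the direction of each.

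Cells that held more than 1 of the 8 genes were few, as sparse counts allow. Among macrophage-like cells they were 3 of 21 in Batch 1 and 12 of 45 in Batch 2, of which 2 and 11 held Csf1r with Csf2rb. Csf1r alone or with others was in 12 and 25 of the macrophage-like cells, and Csf2rb in 3 and 15. After thinning, 1 cell of Batch 1 and 0 of Batch 2 held both. Among monocyte-like cells they were 3 of 30 and 7 of 53. In AT2-like cells of Batch 1, 9 of 158 held Csf2 with Il33, and 2 of 643 did in Batch 2. Csf2 was in 16 and 31 of the AT2-like cells and Il33 in 38 and 20, and after thinning 0 held both in either batch. Matrix fibroblast-like cells had 1 of 930 and 1 of 1285. In total, 54 cells of these 4 groups held at least 2 of the genes, and 8 did after thinning to 600 UMIs.

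Other genes of these pathways were followed in 5 lists, in the same comparisons. Type 2 effector genes of IL-33 target cells were higher in basophil-like than in other immune cells for 6 of 7 tested (1.66% of all genes were), with a median log2 difference of 9.67 against -0.85 for all genes. Mcpt8 stood at 14.03 ± 0.46, Il6 at 10.76 ± 0.96 and Il4 at 9.73 ± 1.34, but Mcpt8, Hdc, Cpa3 and Gata2 in this list were also markers that named the class. Without these 4, 2 of 3 were higher, Il6 and Il4. In the immune compartment 6 of 7 were higher too (15.8% of all genes were).

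Genes of alveolar macrophages that depend on GM-CSF were higher in the immune compartment for 8 of 11 tested (15.8% of all genes were), with a median of 3.48 against -0.18 for all genes. Genes of this list were also higher elsewhere. In the endothelial compartment 4 of 11 were higher and 5 lower (16.3% and 12.7% of all genes), and in the epithelial compartment 3 were higher and 3 lower (21.8% and 14.7%). In the classes, Fabp4, a fatty acid binding protein, had 8.62 UMIs per 10000 in Batch 1 and 42.2 in Batch 2 in the Fabp4/Mrc1 myeloid cells, and Ear2, a ribonuclease, had 4.99 and 3.41. Pparg, the nuclear receptor that GM-CSF induces in alveolar macrophages, was at 0.454 and 0.235 there, both below a floor of 3 counts. The Mpeg1/Ear2 myeloid cells had 0.217 and 0.561 for Pparg, and 1.30 and 4.78 for Ear2. Vascular mural-like cells had 3.72 and 22.5 for Fabp4. The Fabp4/Mrc1 myeloid cells held both chains of the GM-CSF receptor, as given above, and no Csf1r UMI. Chi3l3, a chitinase-like lectin, was lower in macrophage-like than in monocyte-like cells (-4.02 ± 0.95, adjusted p 0.0088) and lower in monocyte-like than in neutrophil-like cells (-2.70 ± 0.50, adjusted p 2.2e-04).

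Other receptors of the families were higher in immune cells for 8 of 13 tested and lower for 2, where 15.8% of all genes were higher and 15.5% lower. The median was 2.44 on the log2 scale against -0.18 for all genes. Il7r, the IL-7 receptor, was higher by 8.75 ± 0.63 (adjusted p 7.8e-06), while Il1r1 (-2.79 ± 0.82, adjusted p 0.025) and Sdc1, a syndecan of epithelial cells (-2.76 ± 0.40, adjusted p 3.2e-04), were lower. In the epithelial compartment Sdc1 was higher by 5.08 ± 0.20 (adjusted p 1.7e-08). Kit, the receptor of stem cell factor, was higher in the endothelial compartment by 5.14 ± 0.36 (adjusted p 1.4e-06), where it also served as a capillary marker. Intracellular signalling genes were higher in immune cells for 9 of 18 and lower for 2 (15.8% and 15.5% of all genes), with a median of 1.04, led by the myeloid factor Spi1 (8.62 ± 0.25, adjusted p 1.5e-09).

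Of the other ligands, 8 were tested over the compartments, and 4 were higher and 1 lower in immune cells (15.8% and 15.5% of all genes), with a median of 1.66. The lower one was Kitl, stem cell factor (-3.58 ± 0.58, adjusted p 7.4e-04), which had its highest level in aerocyte-like capillary cells, 10.0 in Batch 1 and 8.30 in Batch 2. Among the matrix fibroblasts it was higher in MatrixFB-1-like cells, by 3.27 ± 0.71 (adjusted p 0.0013). Tslp, another alarmin of barrier cells, was higher in the mesenchymal compartment (3.76 ± 0.44, adjusted p 7.7e-05), with 3.75 and 2.07 in pericyte-like cells. Il1b was highest in monocyte-like cells, with 0.404 in Batch 1 and 11.3 in Batch 2.

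Over the 50 sums of class and batch, the genes most like each of the 8 were ranked by Pearson's r of log2(UMIs per 10000 + 0.05), which is a description over sums that share libraries and depth. Csf1 was most like Prss34, a basophil protease, with an r of 0.67, and Il1rl1 was most like Il6 (0.87). Il6, Prss34 and Mcpt8 were the 3 genes most like Csf1 and also the 3 most like Il1rl1. Csf1r was most like Aif1 (0.82), Csf2ra most like Fpr2 (0.83), and Csf2rb most like Lilrb4 (0.95) and Ccr1 (0.94). For Csf2 it was Adora2b (0.77), for Il34 Pbld2 (0.73) and for Il33 Akr1c19 (0.68).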

How the data were processed

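Drop-seq libraries of 2 whole lungs at postnatal day 1 were analysed, 1 mouse per batch. The deposited files hold raw UMI counts per gene and cell: the authors aligned reads to mm10 with Bowtie2 2.2.7, counted unique UMIs over exons with Drop-seq tools and did not normalise them. Each deposited cell had at least 500 genes, and cells over 10% mitochondrial UMIs were removed here, which left 2388 and 5615 cells.

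Cells were clustered with Leiden in 2 steps (2000 variable genes, 10 neighbours per batch, resolutions 1.5 and 1.2). The first step used 30 components and the second fewer. The 8 genes and all genes of the pathway lists were left out, also those that served as markers for naming. Mitochondrial genes, haemoglobin genes and a few others were left out too. Clusters were named after listed markers. Cycling, erythroid-like, platelet-like, unnamed and mixed-marker clusters entered no class comparison. Doublets were called with Scrublet (51 and 133 cells) and kept, except in an alternative.

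Counts were summed by compartment or class and batch and fitted with edgeR 4.0.16 (R 4.3.3): TMM, filterByExpr with a minimum count of 10, the quasi-likelihood test, with Benjamini-Hochberg adjustment over all genes and calls at an adjusted p under 0.05. The sums of a batch come from the same mouse, and batch was therefore the replicate block. The difference in 1 batch alone was taken from log2 CPM (prior count 2). DESeq2 1.42.0 was an alternative. With 2 mice, and since classes were named from the same counts, p-values measure the spread between these sums only. Folds against a group at 0 used a floor of 3 counts over the group. In simulated data for the immune comparison, 27 of 100 genes changed 2-fold and 71 of 100 changed 4-fold were recovered, with 7 calls among 11883 unchanged genes. For macrophage-like against monocyte-like cells these were 2 of 100, 51 of 100 and 2 of 6355. The simulation gave all groups the same profile and a fixed spread, without a difference between batches. Changed genes were drawn from those with higher expected counts, so the rates for genes as sparse as those described here were not measured.

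The 8 genes, the pathway lists and the comparisons were chosen with earlier results of these data known. Besides the 8, up to 3 higher and 3 lower list genes of each comparison could be named, those with the largest log2 difference among calls of the same direction in both batches, and the 3 genes most like each of the 8 among genes with at least 50 UMIs. Levels and per-cell values of other genes, and the comparison of Il33 between batches, were added after values were seen. Coordinates are those of GRCm38 (GENCODE vM21). Python 3.11.15 with scanpy 1.11.5, leidenalg 0.10.2 and scipy 1.17.1 was used.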

Additional observations from a re-analysis of the deposited data

Results flagged for a closer look

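The cells of Batch 2 over the mitochondrial limit entered no comparison, and all 8 genes had UMIs in them above the limit that a count of 0 allows, 0.00596 UMIs per 10000. Receptors of the GM-CSF pathway had 0.266 (Csf2ra) and 0.288 (Csf2rb) UMIs per 10000 in these 1940 cells, against 0.163 and 0.121 in the kept cells of Batch 2. Csf1r was at 0.103 against 0.0773, and Csf1 at 0.0934 against 0.101. Csf2 was at 0.0338 and Il34 at 0.0596. Il33 was at 0.0537 and Il1rl1 at 0.0318. Of the 16 Il1rl1 UMIs, 13 were in 2 cells that held at least 3 of the basophil markers, at 38.1 UMIs per 10000, and these 2 cells held 0 Csf1 UMIs and 1 Csf2rb UMI. Which cell types the other cells over the limit belong to was not determined.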

How the results depend on the processing

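Of the tests of single genes, 222 alternatives kept the call, 24 lost it and 5 gained it, and a further 48 single-batch values moved. Il34 in the endothelial compartment turned from -2.23 to 0.062 (log2) with a mitochondrial limit of 5%, and passed in neither. Without the replicate block, the genes called fell from 3513 to 2219 for the endothelial and from 3705 to 2392 for the mesenchymal compartment, from 857 to 477 for AT2-like against AT1-like, from 321 to 116 for the matrix fibroblasts, from 129 to 50 for macrophage-like against monocyte-like and from 292 to 138 for monocyte-like against neutrophil-like cells. DESeq2 called 81 genes in the macrophage comparison. Without TMM the neutrophil comparison called 543. With a mitochondrial limit of 5%, which kept 30.3% of the AT1-like cells of Batch 2, the macrophage comparison called 75, the neutrophil comparison 169 and that with lymphocytes 415 (from 736), and the basophil comparison was not run, since Batch 2 held under 5 such cells. For the fitted counts the cause was not tested. Cells with at least 2 of the genes fell from 54 to 8 on thinning to 600 UMIs, which removes UMIs.

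The class of highest level stayed the same for 8 of 8 genes under most alternatives, for 7 when 2 UMIs were required, and for 6 to 7 with 1 batch left out: Il34 and Il33 moved to AT2-like cells in Batch 1 alone, and Csf2ra to neutrophil-like cells in Batch 2 alone. With the types the authors list for Batch 1, a shortened list used here for 1998 of the 2388 cells, 101 macrophages had 2.55 Csf1r, 2.14 Csf2ra and 1.72 Csf2rb UMIs per 10000, and 3 basophils 6.42 Csf1 and 6.42 Il1rl1. These are not the same cells, since 19 of the 101 were macrophage-like here, 25 monocyte-like, 15 neutrophil-like and 8 platelet-like. With basophils taken as all cells with 3 of the markers, Csf1 was 13.1 and 9.57.

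Scaling moved the share of higher calls from 59.7% to 48.4% in the epithelial compartment without TMM. With DESeq2 and without TMM it moved from 46.2% to 32.5% and 28.4% for AT2-like against AT1-like, from 45.0% to 74.1% and 57.1% for macrophages, from 63.4% to 25.2% and 87.3% for neutrophils and from 72.7% to 97.1% and 97.6% for basophils. For the matrix fibroblasts it moved from 38.3% to 21.7% with DESeq2 and 23.3% without the block. The median of all genes moved by over 0.1 with them, for example from -0.85 to 0.17 and -0.42 for basophils.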
